A study of Mus musculus with 6 samples.

Results

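The genes described here are 7 matrix metalloproteinases (Mmp8, Mmp9, Mmp12, Mmp13, Mmp14, Mmp19 and Mmp25) and 3 of their tissue inhibitors (Timp1, Timp2 and Timp3). They were chosen by gene symbol, with earlier results of these data known, and all 10 were found among the 55335 genes of the count table. RNA was sequenced from CD11b+ cells that had been sorted by flow cytometry from the spleens of WT mice. The MI+RDN group had a myocardial infarction together with renal denervation, which cuts off the nerve supply of the kidneys, and the MI group had the infarction alone. With 3 biological replicates of each there were 6 libraries, and every animal of both groups carried an infarct, so no library shows the uninjured spleen. The labels give neither the time after infarction, nor the age or sex of the mice, nor whether a replicate was 1 animal or a pool.

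Matrix metalloproteinases are zinc-dependent enzymes that cut collagens, elastin and other matrix proteins as well as surface and secreted proteins. They are made as inactive proenzymes, and a prodomain has to be displaced or removed before they work. TIMPs are small proteins that block the active site of the mature enzymes. Neutrophils make Mmp8 and Mmp9 while they mature in the marrow and carry them ready-made in granules, whereas macrophages make most of their metalloproteinases on demand. The spleen stores monocytes that are known to move to the heart after an infarct.

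The promoters of the members with the largest differences between the groups, Mmp12, Mmp8 and Mmp25, are shown with that of Timp2, the inhibitor with the highest count. Each run is the 250 bases before the annotated start, 5′ to 3′ on the strand of the gene, from RefSeq on GRCm38.p6, and the capitals mark the motif matches described after the sequences. The Mmp12 window is chr9:7347124-7347373 on the plus strand, the Mmp8 window chr9:7558179-7558428 on the plus strand, the Mmp25 window chr17:23645270-23645519 on the minus strand and the Timp2 window chr11:118355412-118355661 on the minus strand.
Mmp12: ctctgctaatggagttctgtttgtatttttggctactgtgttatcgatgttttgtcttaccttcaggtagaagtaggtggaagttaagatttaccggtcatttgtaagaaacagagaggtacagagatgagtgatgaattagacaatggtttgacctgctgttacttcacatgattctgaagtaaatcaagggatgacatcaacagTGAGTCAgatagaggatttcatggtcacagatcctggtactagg
Mmp8: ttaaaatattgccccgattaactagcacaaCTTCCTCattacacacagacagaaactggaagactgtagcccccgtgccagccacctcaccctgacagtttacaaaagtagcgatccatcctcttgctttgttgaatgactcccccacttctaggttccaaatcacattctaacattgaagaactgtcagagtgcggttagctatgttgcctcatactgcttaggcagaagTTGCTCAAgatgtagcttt
Mmp25: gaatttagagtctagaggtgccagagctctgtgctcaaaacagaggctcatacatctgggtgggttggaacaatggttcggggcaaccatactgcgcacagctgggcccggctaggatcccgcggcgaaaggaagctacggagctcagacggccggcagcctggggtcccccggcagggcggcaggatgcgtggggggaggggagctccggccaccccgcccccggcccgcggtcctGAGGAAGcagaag
Timp2: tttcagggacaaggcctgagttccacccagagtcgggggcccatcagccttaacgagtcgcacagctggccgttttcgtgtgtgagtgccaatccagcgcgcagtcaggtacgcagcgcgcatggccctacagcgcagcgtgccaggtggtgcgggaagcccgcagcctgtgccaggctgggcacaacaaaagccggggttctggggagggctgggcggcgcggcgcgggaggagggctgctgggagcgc

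The motifs searched, on both strands and by their letters alone, were TGANTCA for AP-1, TTGCNNAA for C/EBP, GAGGAAG for PU.1 and TATAAA for the TATA box. No match of 1 motif overlapped a match of another in these windows. RefSeq gives 2 starts for Mmp12. The window printed above held an AP-1 match that began 44 bases before the start, and the other window, which begins at 7344147 on the same chromosome, held a PU.1 and a C/EBP match instead. In the Mmp8 window a C/EBP match began 19 bases and a PU.1 match, on the opposite strand, 220 bases before the start. A PU.1 match stood 13 bases before the start of Mmp25. The Timp2, Timp1, Timp3 and Mmp14 windows held none of these letters, and the Mmp13 window held an AP-1 match 35 bases and a TATA box 16 bases before the start. Across the 32851 promoter windows of the table, 6.75% held the AP-1 letters, 9.56% those of C/EBP, 10.6% those of PU.1 and 12.4% the TATA box. A match describes letters in a window and does not show that a factor binds there.

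Library totals ranged from 24634555 to 28013900 counts in MI+RDN and from 21663440 to 24677865 in MI. Itgam, which encodes the CD11b used for the sort, stood at 1489 to 1666 CPM in MI+RDN and 1011 to 1301 CPM in MI. CPM here are counts scaled to a common library size after adjustment by TMM, which balances libraries of different composition. Markers of other spleen cells were present at levels that differed by type: 11 B cell markers summed to 5349 to 11820 CPM in MI+RDN and 4388 to 8223 CPM in MI, and 6 plasma cell markers to 719.9 to 1162 CPM in MI+RDN and 674 to 994 CPM in MI. Most of the B cell sum was the immunoglobulin gene Ighm, at 5002, 5196 and 11270 CPM in MI+RDN and 5646, 3716 and 7257 CPM in MI. Ighm had a log2 fold change of 0.37 and did not pass, and the other 10 B cell markers had negative ones. The sum was lower for 10 T cell markers, at 30.4 to 50.7 CPM in MI+RDN and 68.3 to 91.0 CPM in MI. Of 11 markers of fibroblastic stroma, Lum was at 0 in every library, and the list summed to 23.4 to 35.9 CPM in MI+RDN and 31.0 to 47.5 CPM in MI. In a bulk sample of sorted cells, fewer cells of a type and less RNA per cell cannot be told apart, which holds for every value below.

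The 10 members covered a wide range of levels, from genes among the more abundant in these cells to genes with a handful of counts. Compared per kilobase of transcript, Mmp9 was the highest member in every library, at 609 ± 42.3 CPM per kb in MI+RDN and 395.5 ± 50.2 in MI (SD, n = 3 each). Averaged over the 6 libraries it ranked 122 among the 14849 genes that entered the test. Mmp8 came next, at 409 ± 79.2 CPM per kb in MI+RDN and 203 ± 38.8 in MI, and its highest library lay below the lowest Mmp9 library within each group. Together the 7 metalloproteinases summed to 1075 ± 94.5 CPM per kb in MI+RDN and 632 ± 84.0 in MI. Mmp9 made up 56.9% ± 5.12 of that sum in MI+RDN and 62.7% ± 3.32 in MI, and Mmp8 made up 37.9% ± 4.53 in MI+RDN and 31.96% ± 3.01 in MI. Of the others, Mmp25 held 3.15% ± 0.662 of the sum in MI+RDN and 2.29% ± 0.232 in MI, and Mmp19 held 1.77% ± 0.0953 in MI+RDN and 2.44% ± 0.433 in MI. Mmp12 held 0.0578% ± 0.0170 in MI+RDN and 0.348% ± 0.108 in MI. By this measure most of the metalloproteinase transcript in both groups was that of the soluble neutrophil enzymes Mmp9 and Mmp8.

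The order of the middle members differed between the groups. In MI+RDN, Mmp25 (34.3 ± 9.98 CPM per kb) stood above Timp2 (20.5 ± 1.71) and Mmp19 (19.0 ± 2.19), and its lowest library, at 23.9, lay above the highest Timp2 library, at 22.4. In MI, Mmp25 (14.6 ± 2.92 CPM per kb), Timp2 (15.3 ± 0.520) and Mmp19 (15.3 ± 2.23) overlapped. Mmp14 stood above Mmp12 in each MI+RDN library, at 2.22 ± 0.730 against 0.622 ± 0.194 CPM per kb. In MI the Mmp14 libraries (1.74 ± 0.312 CPM per kb) and the Mmp12 libraries (2.15 ± 0.377) overlapped. Timp1, Mmp13 and Timp3 were the lowest 3 members in both groups by mean, each under 0.3 CPM per kb.

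**Figure D1:**
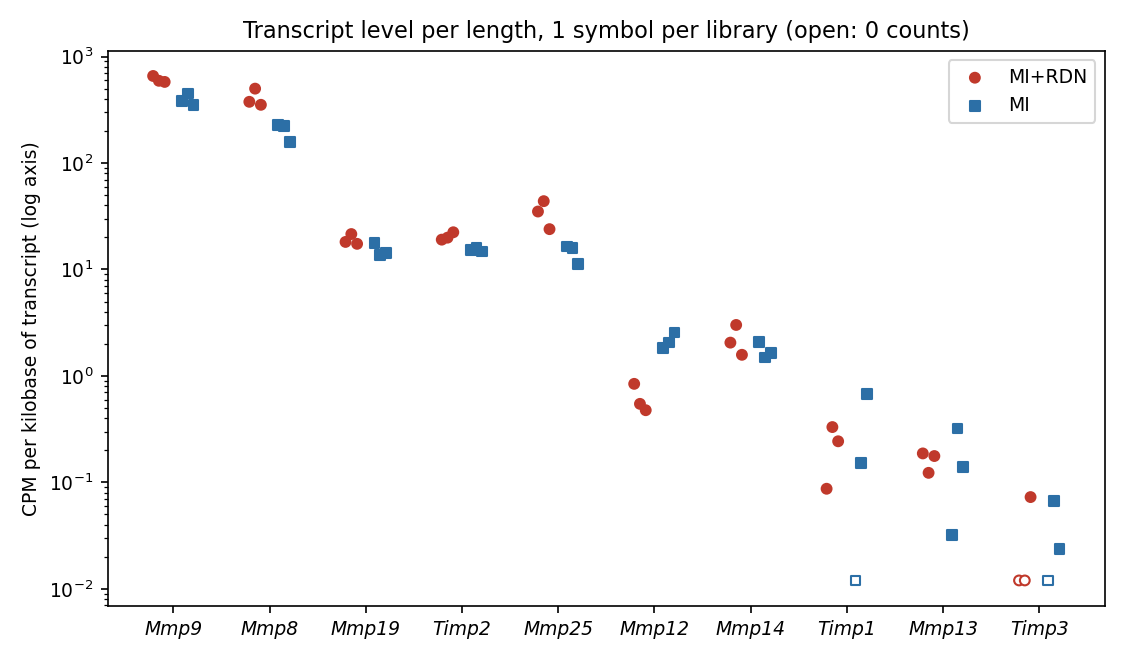
Transcript level of the 10 members in CPM per kilobase of their longest protein-coding transcript, on a log axis, with 1 symbol per library (circles MI+RDN, squares MI) and open symbols for libraries with 0 counts, drawn at the foot of the axis. Mmp9 and Mmp8 stand above the other members in every library, and Timp1, Mmp13 and Timp3 lie at the bottom.

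Setting MI+RDN against MI compares CD11b+ spleen cells after an infarct with and without the denervation procedure on the kidneys. Mmp12 fell 3.44-fold and was the 1 member that passed, by edgeR's quasi-likelihood test with Benjamini-Hochberg adjustment over all 14849 genes at 0.05. Over all genes 0.714% passed as lower and 0.296% as higher. The neutrophil enzymes Mmp8, Mmp9 and Mmp25 and the inhibitor Timp2 stood higher in MI+RDN in every library, without passing. Of the 8 members with enough counts to be tested, these 4 were higher and Mmp12 was lower with no overlap between the groups, against 12.4% of all tested genes higher and 13.7% lower with no overlap. An unadjusted p under 0.05 was reached by 6 of the 8, against 19.9% of all tested genes (9.83% higher and 10.1% lower). With the DESeq2 Wald test, Mmp12, Mmp25, Mmp8, Mmp9 and Timp2 all passed, against 7.85% of all tested genes. Since the members were chosen with earlier results of these data known, these shares describe the members and are not a test of them.

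**Figure D2:**
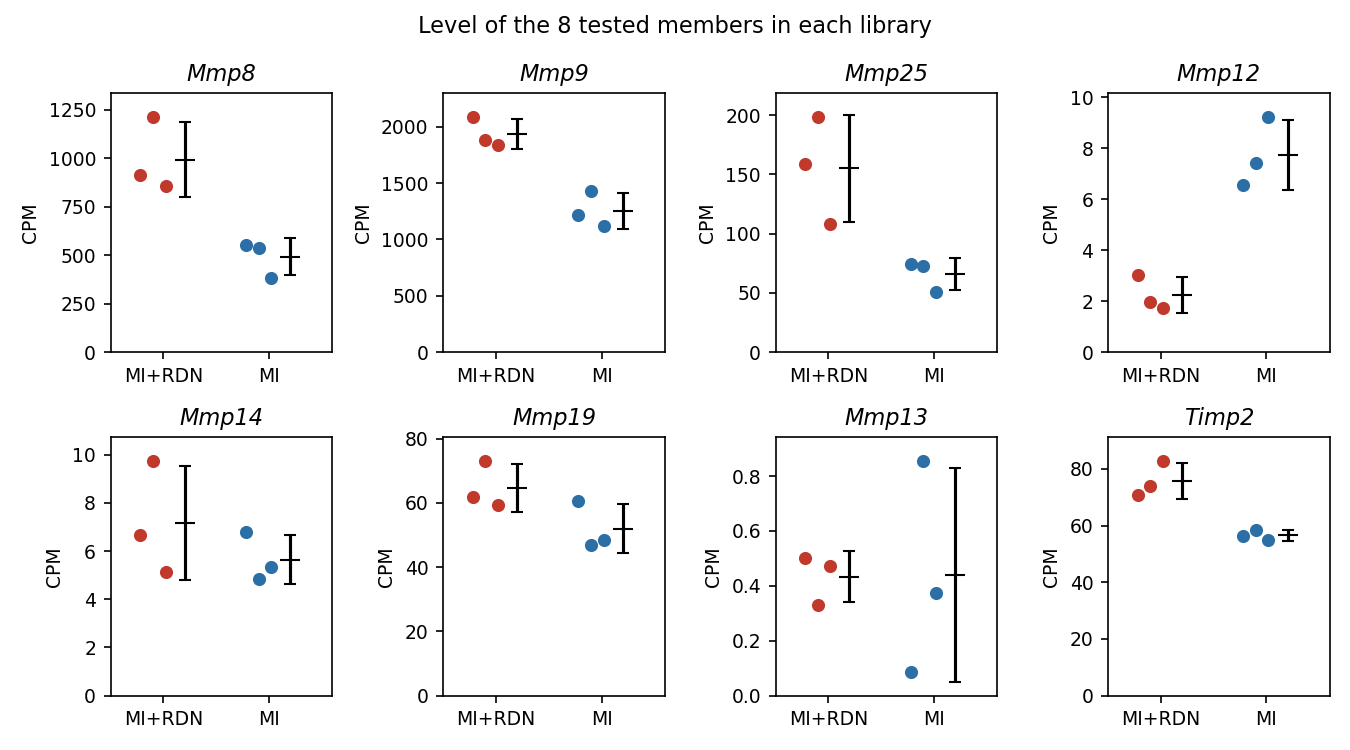
CPM of the 8 tested members in each library (points), with the mean and SD of each group (bar, n = 3), MI+RDN left and MI right, each axis starting at 0. The groups do not overlap for Mmp8, Mmp9, Mmp25, Mmp12 and Timp2, and they overlap for Mmp14, Mmp19 and Mmp13.

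Among the neutrophil enzymes, Mmp8 (ENSMUSG00000005800), the neutrophil collagenase of the specific granules, showed the lowest p. It stood at 911.5, 1212 and 854.4 CPM in the 3 MI+RDN libraries, against 554.7, 538.0 and 384.0 CPM in the MI libraries. Every MI+RDN library was above every MI library, with MI+RDN replicate 2 the highest and MI replicate 3 the lowest. The level was 2.02-fold that of MI (log2 fold change 1.01, SE 0.190) with an adjusted p of 0.0539 by edgeR after Benjamini-Hochberg adjustment, above the threshold.

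Mmp9 (ENSMUSG00000017737), gelatinase B, is stored in the gelatinase granules that neutrophils release more readily than the specific ones. It was counted at 2087, 1881 and 1835 CPM in MI+RDN, against 1215, 1431 and 1120 CPM in MI. Every MI+RDN library was again above every MI library. The 1.54-fold difference (log2 fold change 0.62, SE 0.138) had an edgeR adjusted p of 0.0717.

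Mmp25 (ENSMUSG00000023903), also called leukolysin, is held on the neutrophil surface by a lipid anchor. Its level was 158.7, 198.5 and 108.4 CPM in MI+RDN, against 74.4, 72.6 and 50.7 CPM in MI. It had the largest fold difference of the 3, 2.36-fold (log2 fold change 1.24, SE 0.233), with an edgeR adjusted p of 0.0539. MI+RDN replicate 2 was the highest library for Mmp25 as it was for Mmp8, and without it the log2 fold changes were 1.0 for Mmp25 and 0.83 for Mmp8, against 0.63 for Mmp9. Without MI+RDN replicate 3, its lowest library of that group, Mmp25 passed (log2 fold change 1.42, edgeR adjusted p = 0.0496).

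The ratios among the 3 enzymes overlapped between the groups, although their levels did not. The log2 ratio of Mmp8 to Mmp9 in CPM was -1.20, -0.63 and -1.10 in MI+RDN, against -1.13, -1.41 and -1.55 in MI. For Mmp25 to Mmp9 the log2 ratio was -3.72, -3.24 and -4.08 in MI+RDN, against -4.03, -4.30 and -4.47 in MI. For both ratios the highest library was MI+RDN replicate 2. With 3 libraries a group, an exact permutation test could not reach 0.05, so these ratios are given as values.

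The macrophage enzymes did not move together. Mmp12 (ENSMUSG00000049723), the macrophage elastase, was a low-level gene with 79, 54 and 40 counts in MI+RDN, against 154, 165 and 247 counts in MI. In CPM these were 3.04, 1.97 and 1.72 in MI+RDN, against 6.56, 7.44 and 9.23 in MI. Every MI+RDN library was below every MI library, with MI+RDN replicate 3 the lowest and MI replicate 3 the highest. The 3.44-fold lower level (log2 fold change -1.78, SE 0.269) passed, with an edgeR adjusted p of 0.0401 after Benjamini-Hochberg adjustment. Leaving out any 1 of the 6 libraries ended the call, with a log2 fold change from -2.06 to -1.64 and an adjusted p from 0.0609 to 0.136. It also did not pass when genes with low counts were kept in the test (adjusted p = 0.0793).

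Mmp14 (ENSMUSG00000000957), a membrane-bound enzyme that activates the proenzyme of gelatinase A, stood at 6.66, 9.76 and 5.12 CPM in MI+RDN, against 6.77, 4.83 and 5.34 CPM in MI. The groups overlapped, and the log2 fold change of 0.35 (SE 0.266) had an adjusted p of 0.502 by edgeR. Without MI+RDN replicate 2, its highest library, the log2 fold change was 0.042. Mmp19 (ENSMUSG00000025355), a secreted enzyme that cuts basement membrane proteins, had the highest level of the 3 macrophage genes. It stood at 61.7, 73.2 and 59.3 CPM in MI+RDN, against 60.7, 46.8 and 48.5 CPM in MI, so that MI replicate 1 fell within the range of MI+RDN. The log2 fold change of 0.32 (SE 0.131) had an edgeR adjusted p of 0.234. Mmp19 overlaps Tmem198b on the opposite strand in the annotation, which had 422 to 445 counts in MI+RDN and 240 to 296 in MI, and the strand setting of the counting is not given in the sources used here.

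**Figure D3:**
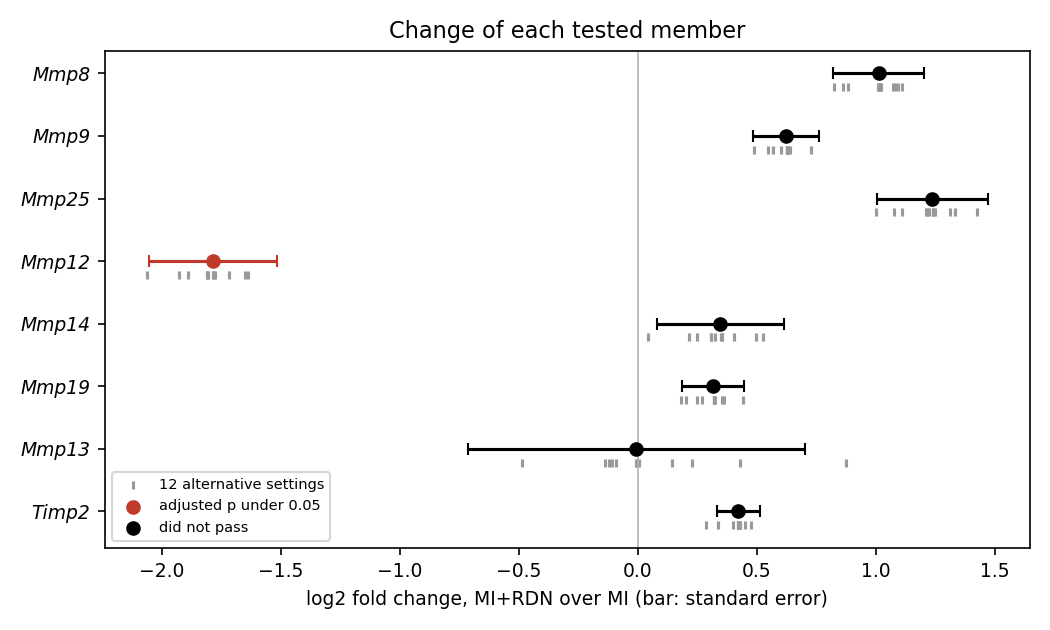
Log2 fold change of MI+RDN over MI for the 8 tested members from edgeR, with the standard error as a bar, red where the adjusted p was under 0.05, and the values under the 12 alternative settings as grey ticks. Mmp12 is the member left of 0 at -1.78, the ticks of Mmp8, Mmp9, Mmp25, Mmp14, Mmp19 and Timp2 all lie right of 0, and those of Mmp13 lie on both sides.

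Mmp13 (ENSMUSG00000050578), a collagenase of bone and cartilage that is also made by some macrophages, was a low-count gene. It had 13, 9 and 11 counts in MI+RDN, against 2, 19 and 10 counts in MI. The MI libraries spanned those of MI+RDN on both sides. The log2 fold change of -0.0055 had an SE of 0.708, so that a difference of the size seen for Mmp25 was not detectable in libraries with counts this few and this uneven.

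Of the inhibitors, Timp2 (ENSMUSG00000017466) was measured well and Timp1 and Timp3 were not. Timp2 is a secreted inhibitor that, at the cell surface, also takes part with Mmp14 in activating gelatinase A. It stood at 70.7, 73.8 and 83.0 CPM in MI+RDN, against 56.4, 58.6 and 54.8 CPM in MI. No MI+RDN library came as low as the highest MI library, and the MI libraries lay within a narrow range. The 1.34-fold difference (log2 fold change 0.42, SE 0.0911) had an edgeR adjusted p of 0.0677. Timp2 overlaps Cep295nl on the same strand, which had 16 to 25 counts in MI+RDN and 8 to 13 in MI.

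Timp1 (ENSMUSG00000001131), the inhibitor that binds the proenzyme of Mmp9 and is induced in many inflamed tissues, had 2, 8 and 5 counts in MI+RDN, against 0, 3 and 16 counts in MI. Timp3 (ENSMUSG00000020044), an inhibitor bound to the matrix, had 0, 0 and 8 counts in MI+RDN, against 0, 7 and 3 counts in MI. The groups overlapped for both, and neither had enough counts to enter the test. A count of 0 allows up to 3 counts, or 0.1096 to 0.1278 CPM in the libraries that had one, for counting error alone. Timp1 lies within Syn1 and Timp3 within Syn3, each on the opposite strand, and Syn1 had more counts than Timp1 in every library, from 136 to 207 in MI+RDN and from 98 to 170 in MI.

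Set against the inhibitors, the enzymes were in large excess as transcripts in these sorted cells. The TIMP sum was nearly all Timp2, at 20.5 CPM per kb in MI+RDN and 15.3 in MI. Timp1 stood at 0.22 in MI+RDN and 0.28 in MI, and Timp3 at 0.024 in MI+RDN and 0.030 in MI. Inhibitors made by cells outside the sort were not measured. The summed metalloproteinases were 56.9, 57.4 and 42.9 times the summed TIMPs in MI+RDN, against 42.7, 44.1 and 34.97 times in MI, in CPM per kb. The groups overlapped through MI+RDN replicate 3, which had the highest Timp2 level. The ratio of Mmp9 to Timp2 also overlapped, at 34.5, 29.8 and 25.8 in MI+RDN against 25.2, 28.5 and 23.9 in MI. The ratio of Mmp8 to Timp2 was 19.7, 25.1 and 15.8 in MI+RDN, against 15.04, 14.04 and 10.7 in MI, with no overlap.

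The neutrophil and macrophage classes differed in direction by their means but not by their medians. Of the macrophage enzymes, Mmp12 was negative (log2 fold change -1.78), and Mmp14 (0.35) and Mmp19 (0.32) were positive. The lower mean of the macrophage class thus came from the low-level gene Mmp12 alone. The summed level of the 3 macrophage enzymes was 21.9 ± 2.89 CPM per kb in MI+RDN and 19.2 ± 2.305 in MI (SD, n = 3 each), with groups that overlapped. The median log2 fold change was 1.01 for the 3 neutrophil enzymes and 0.32 for the 3 macrophage enzymes, against 0.0080 for all genes tested, of which 51% were positive. Without MI+RDN replicate 2 the macrophage median was 0.042, and with no scaling factors it was 0.18. On log2 CPM centred on each gene's mean over the 6 libraries, the 3 macrophage enzymes averaged -0.076, -0.014 and -0.49 in MI+RDN, against 0.29, 0.061 and 0.23 in MI, so that their mean was lower in MI+RDN while their median fold change was positive. The 3 neutrophil enzymes averaged 0.50, 0.70 and 0.23 in MI+RDN, against -0.36, -0.31 and -0.76 in MI. The mean of the neutrophil enzymes minus that of the macrophage enzymes was 0.58, 0.71 and 0.71 in MI+RDN, against -0.65, -0.37 and -0.99 in MI. The ratios to Mmp12 did not overlap between the groups. The log2 ratio of Mmp9 to Mmp12 in CPM was 9.42, 9.90 and 10.06 in MI+RDN, against 7.53, 7.59 and 6.92 in MI. Within the macrophage class, the log2 ratio of Mmp19 to Mmp12 was 4.34, 5.21 and 5.11 in MI+RDN, against 3.21, 2.65 and 2.39 in MI, and that of Mmp14 to Mmp12 was 1.13, 2.31 and 1.57 in MI+RDN, against 0.046, -0.62 and -0.79 in MI. Neither class was given a test of its own, since its genes were picked with earlier results known.

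Most markers of neutrophils had the direction of Mmp8, Mmp9 and Mmp25. Of 13 neutrophil markers, which do not include the metalloproteinases, 3 rose, 0 fell and 10 did not pass, with a median log2 fold change of 0.93. By sign 12 were positive, from Trem1 (0.33) to Ly6g (1.55), and 1, Cxcl2 (-0.38), was negative. The groups overlapped for Cxcl2, Csf3r (0.34), Cxcr2 (0.49) and Trem1. The summed level of the 13 markers was 24590 to 26300 CPM in MI+RDN and 11360 to 17710 CPM in MI, and none was at 0. Subtracting the mean centred log2 CPM of these markers from that of Mmp9 left 0.097, -0.11 and -0.19 in MI+RDN, against -0.12, 0.023 and 0.30 in MI. The same subtraction left 0.072, 0.43 and -0.13 for Mmp8 in MI+RDN, against -0.085, -0.22 and -0.072 in MI. For Mmp25 it left 0.35, 0.62 and -0.30 in MI+RDN, against -0.18, -0.31 and -0.19 in MI. Relative to the neutrophil markers, all 3 enzymes thus overlapped between the groups. Timp2 was lower in MI+RDN by this subtraction, at -0.22, -0.21 and -0.091, against 0.016, -0.017 and 0.52 in MI, with no overlap. Against the markers of Ly6C-low monocytes, red pulp macrophages and conventional DC2 described below, Timp2 was higher with no overlap. Against those of Ly6C-high monocytes and neutrophil precursors its groups overlapped.

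Genes of neutrophil precursors, mostly granule genes such as those of myeloperoxidase and lactoferrin, were less even. The list also holds Ltb4r1 and Cebpe, which are not granule genes, and Chil3, which is also among the Ly6C-high monocyte markers. Of its 11 genes, 0 passed in either direction, with a median log2 fold change of 1.11. Their summed level was 13500, 28940 and 5068 CPM in MI+RDN, against 10110, 8945 and 5888 CPM in MI. MI+RDN replicate 2 held the most of them and was the library in which Mmp8 and Mmp25 were highest, and without it the median was 0.18. Their mean centred log2 CPM was 0.11, 1.72 and -0.59 in MI+RDN, against -0.024, -0.34 and -0.87 in MI. MI+RDN replicate 3 was thus the lowest library by the sum but not by this mean, in which each gene weighs the same. The part of neutrophil markers or precursor genes in the differences of the enzymes was not tested.

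Beside Mmp12, the marker lists of several cell types had negative median log2 fold changes. Of 12 markers of conventional DC2, a CD11b+ dendritic cell, 6 fell, 0 rose and 6 did not pass, with a median log2 fold change of -0.97. Their summed level was 1753 to 1874 CPM in MI+RDN and 2489 to 3137 CPM in MI. Of 16 red pulp macrophage markers 0 passed, with a median of -0.59 (leaving out MI+RDN replicate 1 gave -0.37, and leaving out its replicate 3 gave -1.08) and summed levels of 1147 to 1610 CPM in MI+RDN and 1442 to 1658 CPM in MI. The median was -1.12 for the 10 T cell markers, of which 1 fell and 10 were negative. For the 11 B cell markers it was -0.89, with 0 past the threshold and 10 negative. Erythroid markers had a median of -1.26, with 7 tested and 0 past the threshold, and summed to 173 to 246 CPM in MI+RDN and 388 to 778 CPM in MI. The medians were -0.81 for 7 markers of conventional DC1 and -0.78 for the 6 tested of plasmacytoid DC, with 0 past the threshold in either list. The summed conventional DC1 markers were 256.5 to 296 CPM in MI+RDN and 332 to 354 CPM in MI, and those of plasmacytoid DC 98.5 to 122 CPM in MI+RDN and 120.0 to 125 CPM in MI. Such sums mainly follow the most abundant genes. Most of the conventional DC1 sum was Wdfy4, at 236 to 270 CPM in MI+RDN and 284 to 320 CPM in MI (log2 fold change -0.28). The most abundant by mean were Slc40a1 (0.27) and Hmox1 (-0.0007) among the red pulp markers, and Sirpa (-0.035) and H2-Eb1 (-1.15) among those of conventional DC2. No marker of these lists was at 0 in every library. Mmp12 minus the conventional DC2 markers, in centred log2 CPM, was 0.17, -0.59 and -0.87 in MI+RDN, against 0.40, 0.53 and 0.35 in MI. Mmp12 minus the red pulp macrophage markers was 0.38, -0.63 and -1.43 in MI+RDN, against 0.53, 0.53 and 0.62 in MI. Neither difference overlapped between the groups, though MI+RDN replicate 1 came near MI in both. Monocyte markers had medians smaller in size, at -0.033 for 8 of the Ly6C-high type (2 rose, 0 fell). For 8 of the Ly6C-low type the median was 0.027 (0 passed). Both lists were split. Ly6c2 and Ly6c1 rose (log2 fold changes 0.92 and 0.94), while 4 of the 8 Ly6C-high markers were negative. Of the Ly6C-low markers 5 were positive and 3 negative, and Cx3cr1 (-0.65) and Treml4 (-0.23) were lower with no overlap. The summed Ly6C-high markers were 5893 to 8899 CPM in MI+RDN and 7038 to 8321 CPM in MI, and the summed Ly6C-low markers 2767 to 3744 CPM in MI+RDN and 3127 to 3397 CPM in MI. The part of these cell types in the fall of Mmp12 was not tested.

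**Figure D4:**
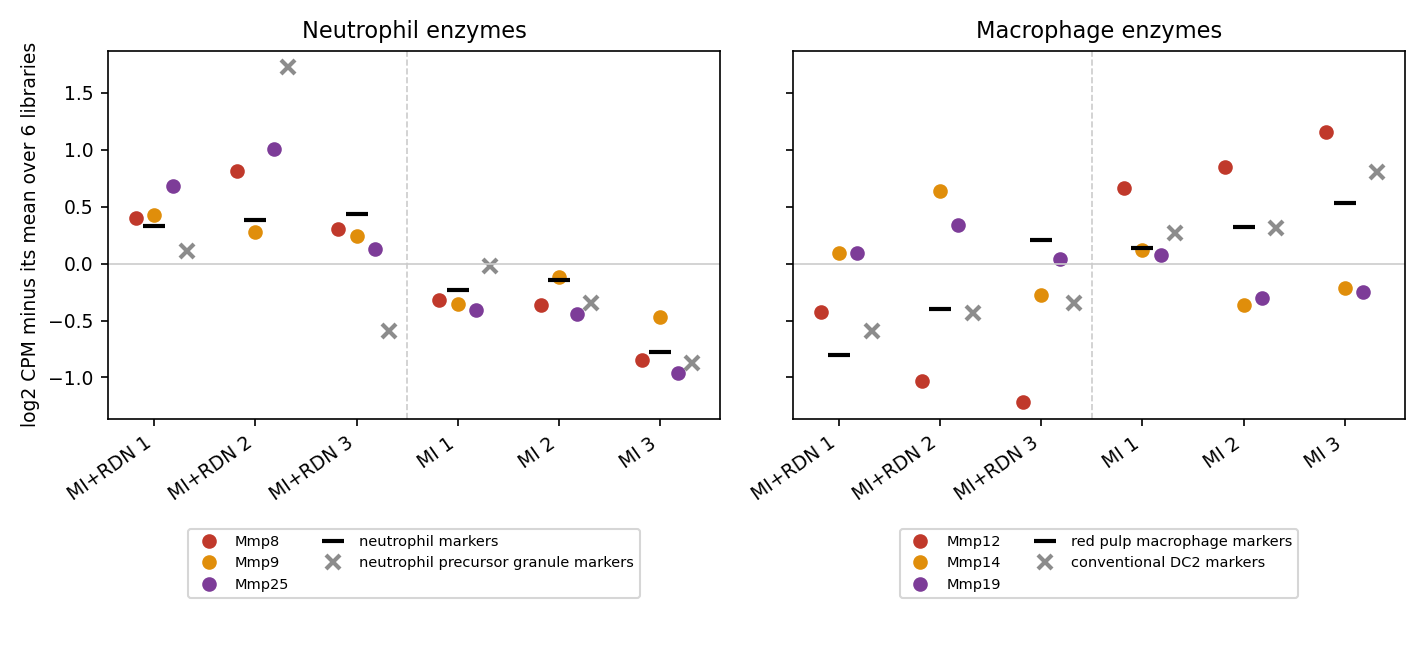
Log2 CPM of the neutrophil enzymes (left) and the macrophage enzymes (right), each minus its mean over the 6 libraries, in the MI+RDN and then the MI libraries, with the mean of 2 marker lists in each panel as dashes and crosses. Mmp8, Mmp9 and Mmp25 lie at most 0.62 from the neutrophil markers in each library, and Mmp12 lies below 0 in MI+RDN and above 0 in MI while Mmp14 and Mmp19 do not.

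For the member with the lowest p in each class, the 3 most alike genes were taken by the smallest root mean square difference between centred log2 CPM profiles over the 6 libraries, among 11057 genes. The nearest to Mmp8 were Pglyrp1, a peptidoglycan-binding protein of neutrophil granules, at 0.048, Cdk5r1 at 0.055 and Klf5, a zinc finger transcription factor, at 0.068. For scale, the profile of Mmp8 had a root mean square of 0.56. Pglyrp1 stood at 375, 485 and 364 CPM in MI+RDN, against 235, 226 and 171 CPM in MI. Its highest and lowest libraries were those of Mmp8, which the choice by likeness to Mmp8 favours.

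The nearest to Mmp12 were less close: Adam23 at 0.21, Cd4, a coreceptor carried by helper T cells and by some splenic dendritic cells, at 0.22, and Celf4, an RNA-binding protein, at 0.23, against a root mean square of 0.93 for Mmp12 itself. All 3 had lower levels in every MI+RDN library than in any MI library, which the choice by likeness to Mmp12 favours. Cd4 stood at 11.4, 11.2 and 9.71 CPM in MI+RDN, against 34.9, 31.6 and 47.7 CPM in MI. Nearest to Timp2 were Ccdc180, the mitochondrial protein gene Chchd2 and Elob, which encodes elongin B, at 0.026, 0.026 and 0.028, against 0.22 for Timp2 itself. With 6 libraries in 2 groups there are few distinct profiles, so likeness here is a small difference between profiles and no more.

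The rest of the pathway was taken from lists that hold none of the members. Of 16 other metalloproteinases 3 had enough counts to be tested and none passed, and 8 were at 0 in every library, among them Mmp3 and Mmp10. Mmp2, gelatinase A, had 1 count in MI+RDN and 0 in MI. Mmp27 had the lowest p, at 2.11 ± 0.622 CPM in MI+RDN and 0.879 ± 0.805 in MI (SD, n = 3 each), with groups that overlapped (log2 fold change 1.27, SE 0.620, edgeR adjusted p = 0.303). Mmp23 followed, at 0.722 ± 0.417 CPM in MI+RDN and 1.08 ± 0.158 in MI (edgeR adjusted p = 0.530).

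Of 7 other inhibitors, Reck, a membrane-anchored inhibitor, was the 1 tested, and Timp4, A2m, Mug1 and Mug2 were at 0 in every library. Reck stood at 10.7, 18.2 and 6.28 CPM in MI+RDN, against 7.07, 4.87 and 4.71 CPM in MI, and did not pass (log2 fold change 1.08, SE 0.372, edgeR adjusted p = 0.168). MI+RDN replicate 2 was again the highest library, and MI+RDN replicate 3 lay within the range of MI.

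Among 11 genes that activate proenzymes or localise such activation, 7 were tested and none passed, with 6 positive and a median log2 fold change of 0.48. Of the positive genes, Elane (1.60), Prtn3 (1.39) and Ctsg (1.74) are also among the genes of neutrophil precursors above. Each of them was highest in MI+RDN replicate 2. Pcsk7, a furin-like convertase, stood at 81.4 ± 3.88 CPM in MI+RDN and 62.4 ± 4.23 in MI with no overlap (edgeR adjusted p = 0.0771). Plaur, the urokinase receptor that focuses plasmin formation at the surface, stood at 260.5 ± 19.4 CPM in MI+RDN and 187 ± 26.0 in MI, again with no overlap (edgeR adjusted p = 0.0961). Plg, which encodes plasminogen, had 2 counts in MI+RDN and 0 in MI.

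All 9 genes of surface partners and clearance were tested and none passed, with 6 positive, 3 negative and a median of 0.25. Itgav, an integrin alpha chain that binds matrix, had the lowest p and stood at 46.1 ± 4.46 CPM in MI+RDN and 63.4 ± 1.74 in MI, with no overlap (log2 fold change -0.46, SE 0.0957, edgeR adjusted p = 0.0635). Itgam, which docks Mmp9 on leukocytes as well as marking the sort, had a log2 fold change of 0.50 (SE 0.136, edgeR adjusted p = 0.109). Lcn2, whose product binds Mmp9 covalently in human neutrophils, stood at 2358 ± 1299 CPM in MI+RDN and 1240 ± 315 in MI and did not pass (edgeR adjusted p = 0.244). Lcn2 is also among the granule genes of neutrophil precursors above. Of 12 matrix substrates 7 were tested and none passed, and Eln, the elastin cut by Mmp12, had 4 counts in MI+RDN and 0 in MI. Col1a1 stood at 1.27, 3.22 and 1.55 CPM in MI+RDN, against 0.809, 1.13 and 0.934 CPM in MI (edgeR adjusted p = 0.207), and Col4a2 at 5.52 ± 1.702 CPM in MI+RDN and 3.67 ± 0.335 CPM in MI (edgeR adjusted p = 0.271).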

How the data were processed

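Counts per Ensembl gene in 6 libraries were deposited by the authors as whole numbers with no normalisation. Libraries were strand-specific, per the labels' protocols, and the submitters' processing notes name FastQC 0.11.2, STAR and GRCm39. Neither the counting tool nor its strand setting nor the annotation release is given in the sources used here. Symbols were matched by Ensembl ID for 55154 of 55335 genes, and transcript lengths and overlapping genes came from a GRCm38 annotation (GENCODE), so no coordinates of the counted genes are given. Groups come from the treatment label, and p-values measure the spread between these libraries, whose common biological coefficient of variation was 20.7%.

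Counts were tested in R 4.3.3 with edgeR 4.0.16 (filterByExpr, TMM, quasi-likelihood F test, Benjamini-Hochberg over 14849 genes at 0.05), with no covariate. SE was derived as the log2 fold change, without its sign, divided by the root of F. Fold changes are MI+RDN over MI. Log2 CPM used a prior count of 2. The procedure was tested on simulated data. DESeq2 1.42.0 and limma 3.58.1 served as alternatives. Levels per kilobase used the longest protein-coding transcript. Promoter sequences were found for 8 of the 10 members. The members, gene lists, motifs and naming rule were chosen with earlier results of these data known. Pathway genes named are those past the threshold or, where none passed, the 2 with the lowest p, and Mmp2, Mmp3, Mmp10, Plg, Lcn2, Eln and the inhibitors at 0 were named after their values were seen. For the most alike genes, a mean of at least 1 CPM was required. Figures were drawn with matplotlib 3.10.9.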

Additional observations from a re-analysis of the deposited data

How the results depend on the processing

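Mmp8, Mmp9, Mmp25, Mmp14, Mmp19 and Timp2 kept a positive and Mmp12 a negative log2 fold change under each of the 12 alternatives. The number of members that passed was 3 without scaling factors (Mmp12, Mmp25 and Mmp8), 5 with the DESeq2 Wald test (these 3, Mmp9 and Timp2), 0 without a filter on low counts (6 members at an unadjusted p under 0.05), and 0 to 1 with 1 library left out (5 or 6 at an unadjusted p). The 1 was Mmp25, without MI+RDN replicate 3 (adjusted p = 0.0496). Over all genes, 150 passed, 44 higher and 106 lower. That count was 475 without scaling factors (62 higher, 413 lower; the median log2 fold change over all genes was then -0.13), 21 without a filter, 1165 with the DESeq2 Wald test and 0 to 67 with 1 library left out. Its 2 zeros, by edgeR, went with 2323 genes (without MI+RDN replicate 1) and 2084 genes (without MI replicate 3) at an unadjusted p under 0.05. The cause of these differences was not tested, beyond the smaller samples and the change in genes tested that the settings themselves bring.

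Libraries share replicate numbers, but deviations of same-numbered libraries from their group means correlated at 0.018, -0.065 and 0.064 across genes, so the numbers were not taken to pair them. With the replicate block 87 genes passed, and Mmp25 (adjusted p = 0.0381) was the member that did, in place of Mmp12 (0.0690). The log2 fold change of Mmp13 turned to 0.0034 without a filter, 0.43 with limma-voom and 0.23 with the replicate block, and ranged from -0.49 to 0.88 with 1 library left out. Of 288 recomputed medians of lists and classes, 253 moved by less than 1 SD between replicates and 35 by 1 SD or more. The SD was that of each list itself, so an uneven list can move far and stay within it. The neutrophil precursor median went from 1.11 to 0.18 without MI+RDN replicate 2, within its SD of 1.12. The neutrophil marker median, at 0.93, ranged from 0.74 to 1.08 with 1 library left out, against an SD of 0.086. Timp1 and Timp3 had too few counts to enter the test, and Mmp13 had 33 counts in MI+RDN and 31 in MI. Shares of the metalloproteinase sum taken without division by length, an alternative chosen after seeing the data, were 31.3% for Mmp8 in MI+RDN and 26.1% in MI.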
